A study of Bos taurus with 2 samples.

Results

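The miR-23, miR-27 and miR-24 family was followed in 2 fractions of cow milk whey, on an Agilent microarray of bovine miRNAs. Its members were chosen by array name: every bovine entry called miR-23a, miR-23b, miR-27a, miR-27b or miR-24, with or without a strand suffix. This gave 8 entries of the 670 on the array, read by 18 probes. The milk was raw milk of Holstein cows that the submitters' laboratory keeps for development work. Its whey was spun at 10000 g for 90 min at 4 °C. The labels name this step ultracentrifugation, which commonly means stronger spinning, so how fully vesicles were pelleted is not known. The pellet, washed in buffer, is what the labels call exosome, small membrane vesicles shed by cells, and the liquid above it is the supernatant. RNA of 3 milk samples went into 1 equal pool per fraction, and 40 ng of it was labelled with the dye Cy3. Each fraction therefore has 1 array, no difference below has a replicate check or a p-value. Each ± is an SD between the spots of a single array and covers technical spread only. All values are background-subtracted spot brightness in the scanner's intensity units, unscaled unless a scaling is named. With 40 ng labelled for each array, a signal reads a miRNA's share of that RNA and not its amount in the fraction. In the RNA of a whole fraction, fewer vesicles and less of a miRNA per vesicle cannot be told apart.

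Mammals carry this family as a pair of related gene clusters. In each, a miR-23, a miR-27 and a miR-24 hairpin are made from 1 primary transcript, in that order. Each hairpin can yield a miRNA from its 5′ arm (5p) and from its 3′ arm (3p), and in this family the 3p strand is the one usually kept. miR-23a and miR-23b are near-identical, as are miR-27a and miR-27b, while both clusters give the same mature miR-24-3p. The family is best known for roles in blood vessel growth and in fat cell formation, where miR-27 represses PPARG, a master regulator of adipocytes. miR-24 is known for restraining cell division genes, and miR-27 and miR-24 also act in lymphocytes.

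The array design places the members in both clusters, with positions in the build HGSC Btau_3.1. On chromosome 7 lie the longest probes of miR-23a (chr7:10102180-10102193), miR-27a-5p (chr7:10102322-10102336), miR-27a-3p (chr7:10102360-10102374) and miR-24-3p (chr7:10102511-10102527). On chromosome 8 lie those of miR-23b-5p (chr8:85962050-85962064), miR-23b-3p (chr8:85962089-85962103), miR-27b (chr8:85962316-85962332) and miR-24 (chr8:85962814-85962833). Several of these intervals are 1 base shorter than the probe, so an end is known to within 1 base. The probes span 348 bases on chromosome 7 and 784 bases on chromosome 8. RefSeq's genes on ARS-UCD2.0, read here for neighbourhood alone, put those of the chromosome 8 cluster within the protein-coding gene AOPEP. Those on chromosome 7 overlap the protein-coding locus LOC132345691. RefSeq has a miR-24 gene in each cluster, whereas the array lists miR-24-3p on chromosome 7 only, so its signal cannot be assigned to 1 cluster.

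**Figure D1:**
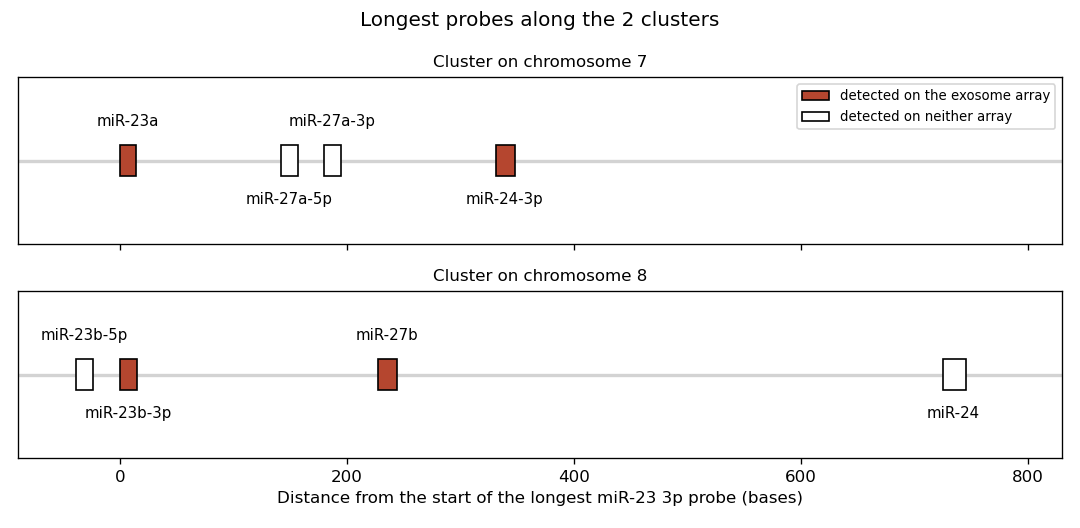
Longest probe of each entry along the clusters on chromosomes 7 and 8, with distance in bases from the start of the miR-23 3p probe. Filled boxes were detected on the exosome array and open boxes on neither array: both miR-23 3p entries, miR-27b and miR-24-3p are filled, and miR-27a-3p and all 5p entries are open.

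The probes of the paralogs are shown because they set how far the clusters can be told apart. Each probe is complementary to its miRNA from the 3′ end inward. The longest probes of each pair are given 5′ to 3′, with the base that differs within their overlap in capitals. The miR-23b-3p and miR-27b probes also start with a g that the probe of their paralog lacks.
bta-miR-23a: tggAaatccctggca
bta-miR-23b-3p: gtggTaatccctggc
bta-miR-27a-3p: cGgaacttagccact
bta-miR-27b: gcAgaacttagccactgt
The miR-23 probes overlap by 14 bases with 1 mismatch, A4T, counted from the 5′ end of the miR-23a probe. The miR-27 probes overlap by 15 bases with 1 mismatch, G2A, counted from the 5′ end of the miR-27a-3p probe. No other miRNA on the array came within 1 mismatch of a member over at least 12 bases. How much of the signal on one probe came from the other paralog was not tested.

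The entry named plain miR-24 does not read the miR-24-3p strand. The RNA stretches complementary to the longest probes of both miR-24 entries, derived from the probes, are given 5′ to 3′.
bta-miR-24-3p: ucaguucagcaggaacag
bta-miR-24: gccuacugagcugauaucagu
The best overlap of these probes has 8 mismatches in 13 bases. The second stretch belongs to the strand usually called miR-24-1-5p, and its position at the end of the chromosome 8 cluster fits the miR-24 gene there. The entry is counted as a 5p entry below. The array therefore held 5 entries for 3p strands and 3 for 5p strands. The names miR-23a and miR-27b carry no suffix and stand for 3p strands.

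Signal from the family was found in the exosome fraction alone under the main rule. Detection of a probe needed the scanner software's flag for well above background on at least 50% of its spots, and detection of a miRNA needed 1 such probe. By this rule 4 of the 8 entries were detected on the exosome array, against 9.85% of all 670 miRNAs. These were bta-miR-23a, bta-miR-23b-3p, bta-miR-27b and bta-miR-24-3p. Supernatant gave 0 of 8, against 12.7% of all miRNAs. All 4 were thus seen in exosome only, as were 5.37% of the miRNAs on the array. Over the 18 probes, 142 of 472 spots were well above background in exosome and 0 of 470 in supernatant. Over all miRNA spots, outliers included, the shares were 7.71% and 11.8%. Nearly all of the 142 spots lay on the 5 detected probes, so this count restates the calls. The highest mean of any member probe on the supernatant array was 3.06, below the mean of 4.41 over 976 negative control spots. On the exosome array 7 of the 18 probe means lay above 7.36, the highest mean of any of the 7 negative controls. The 5 detected probes are among them, and the share over all probes was not computed.

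**Figure D2:**
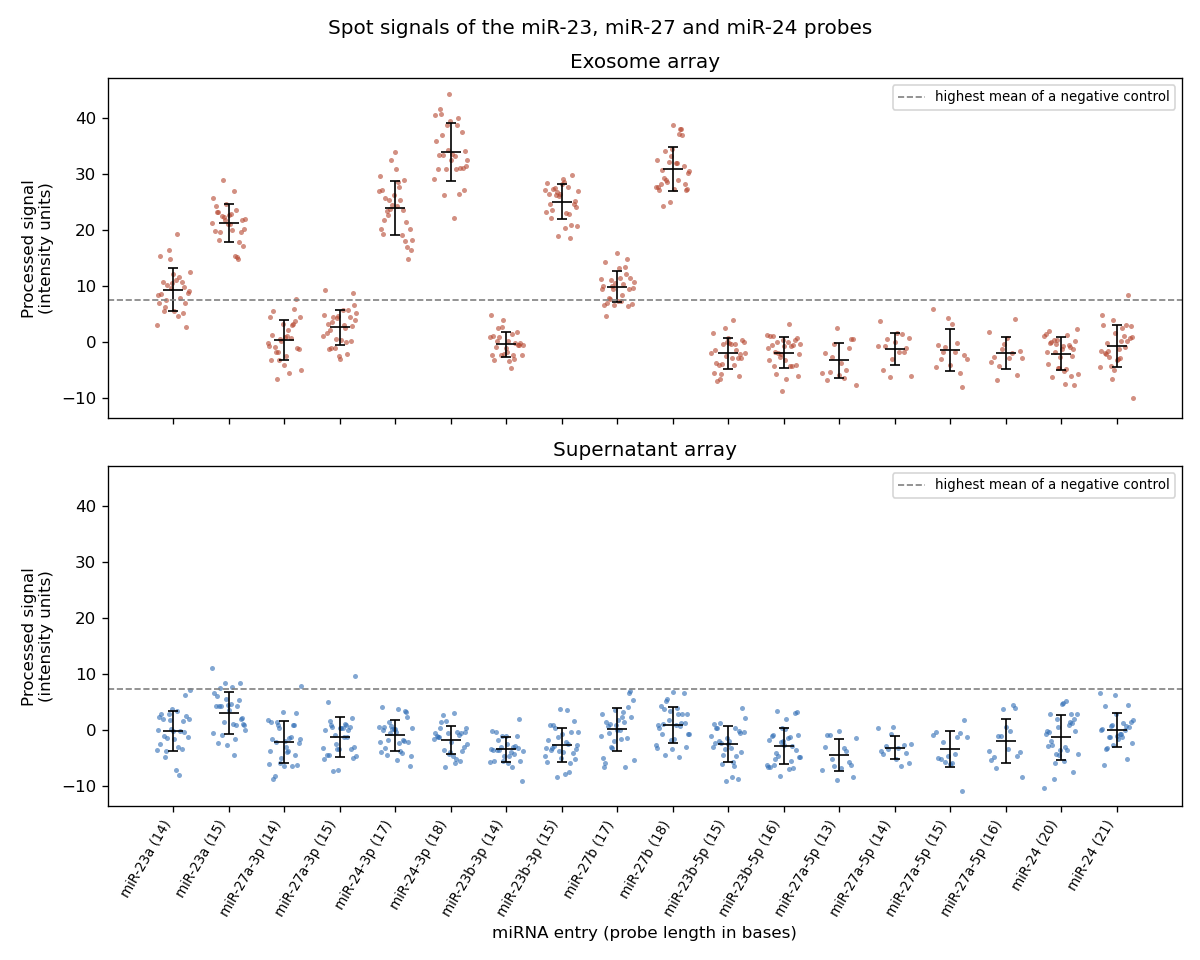
Processed signal of every spot of the 18 member probes on each array, with outlier spots left out. Black bars are the mean ± SD over spots, and the dashed line is the highest mean of a negative control (7.36 for exosome, 7.35 for supernatant). On the exosome array the 5 detected probes stand between 21.3 and 33.9, while on the supernatant array no probe mean exceeds 3.06.

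bta-miR-24-3p, the product shared by both clusters, was the only member seen by every one of its probes. Its 18-base probe read 33.9 ± 5.17 on the exosome array (30 spots; lowest 22.0, median 33.4, highest 44.3) and -1.84 ± 2.57 on the supernatant array (28 spots; highest 2.96). Its 17-base probe read 23.9 ± 4.89 and -0.998 ± 2.79 (30 spots each). Of the spots, 30 of 30 and 27 of 30 were well above background on the exosome array. The spots of the arrays did not overlap on either probe: the lowest exosome spots, 22.0 and 14.7, lay above the highest supernatant spots, 2.96 and 4.01. Averaged over both probes, miR-24-3p read 28.9 ± 5.03 in exosome and -1.42 ± 2.68 in supernatant.

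The miR-23 paralogs behaved alike in their calls, and each was seen by its longer probe only. The 15-base bta-miR-23a probe read 21.3 ± 3.36 on the exosome array (29 spots; lowest 14.7, median 21.7, highest 28.9), with 25 spots well above background. In supernatant it read 3.06 ± 3.74 (30 spots; lowest -4.59, median 3.79, highest 11). This was the highest supernatant mean of the family, and still the spots of the arrays did not overlap. The 14-base miR-23a probe, which lacks the final base, read 9.31 ± 3.91 and -0.190 ± 3.57, with 1 of 29 exosome spots well above background.

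The 15-base bta-miR-23b-3p probe read 25 ± 3.11 on the exosome array (29 spots; lowest 18.5, median 25.9, highest 29.7), with all 29 spots well above background. In supernatant it read -2.68 ± 3.08 (30 spots; highest 3.63), again without overlap. The 14-base miR-23b-3p probe read -0.476 ± 2.29 on the exosome array, with 0 of 28 spots well above background and a highest spot of 4.71. The final base, shown in capitals in gtggtaatccctggC, thus separates a probe at background from one detected in every spot. In supernatant this 14-base probe read -3.53 ± 2.28.

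The miR-27 paralogs differed in their calls. bta-miR-27b was detected through its 18-base probe, which read 30.9 ± 3.97 on the exosome array (30 spots; lowest 24.2, median 30.3, highest 38.7), with 30 of 30 spots well above background. In supernatant this probe read 0.913 ± 3.21 (30 spots; highest 6.67), and the spots did not overlap. The 17-base miR-27b probe read 9.78 ± 2.77 on the exosome array, where 0 of 30 spots were well above background although all 30 were positive and significantly different from background. In supernatant it read 0.0393 ± 3.76, and here the spots overlapped: the lowest exosome spot was 4.55 and the highest supernatant spot 6.91.

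miR-27a-3p was detected on neither array. Its 15-base probe read 2.55 ± 3.17 on the exosome array (30 spots; lowest -3.02, median 2.88, highest 9.23) and -1.28 ± 3.54 on the supernatant array (30 spots; highest 9.65), with overlapping spots. Its 14-base probe read 0.290 ± 3.55 and -2.14 ± 3.78. On the exosome array 40% of the spots of the 15-base probe were positive and significant, a share reached by the best probe of 136 of the 604 miRNAs not detected there, or 22.5%. The longest miR-27a-3p probe has 15 bases and that of miR-27b 18, and the 17-base miR-27b probe was itself not detected. The part of probe length in the difference between these calls was not tested, and miR-27a-3p is described as not detectable with these probes rather than absent.

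None of the 5p entries gave signal on either array. miR-23b-5p, averaged over its probes, read -2.03 ± 2.72 in exosome and -2.73 ± 3.28 in supernatant. miR-27a-5p, with 4 probes of 13 to 16 bases, read -2.06 ± 3.17 and -3.35 ± 3.1. The miR-24 entry for the 5p strand, whose probes of 20 and 21 bases are the longest of the family, read -1.41 ± 3.36 and -0.675 ± 3.57. So 4 of 5 entries for 3p strands and 0 of 3 for 5p strands were detected on the exosome array, with 0 of 5 and 0 of 3 on the supernatant array. The shares of all miRNAs were 9.85% and 12.7%, so a count of 0 among so few entries is close to the background. The strands can be compared within a hairpin for miR-23b, where 3p was detected and 5p was not, and for miR-27a, where neither was. For miR-24-3p both hairpins can be the source, and the 5p entry reads that of chromosome 8. For miR-23a and miR-27b the array holds no entry for the other strand. By the cluster that names an entry, miR-24-3p left out, chromosome 7 gave 1 detected of 3 (miR-23a) and chromosome 8 gave 2 of 4 (miR-23b-3p and miR-27b). Signal from the other paralog was not tested, so these counts do not tell the clusters apart.

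The looser and the stricter rules changed these calls at 4 points. Under the looser flag, which asks only that a spot be positive and significantly above its background, the exosome calls stayed at the same 4 entries, against 26.3% of all miRNAs. miR-23a was then also called on the supernatant array, with 15 of 30 spots of its 15-base probe passing, exactly the 50% required. This is 1 of 8 members against 27.0% of all miRNAs. With every probe of a miRNA required, miR-24-3p alone stayed of the family, against 5.22% of all miRNAs on the exosome array. miR-23a, miR-23b-3p and miR-27b then fell to undetected.

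**Figure D3:**
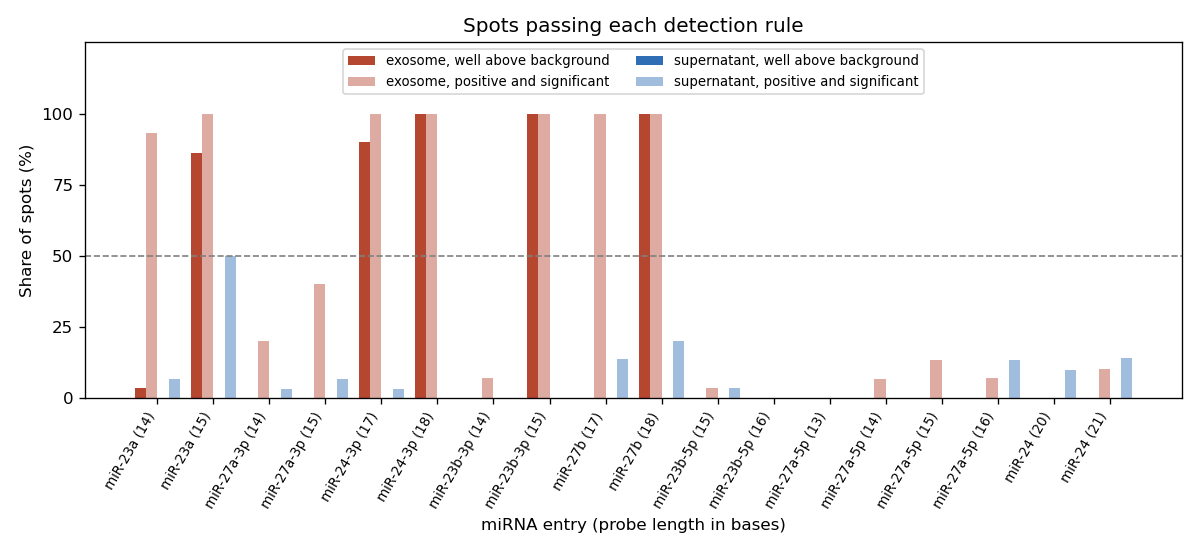
Percent of spots of each member probe that were flagged well above background (dark) or positive and significant (light) on the exosome array (red) and the supernatant array (blue), with the 50% rule as a dashed line. No probe has a dark blue bar; the 15-base miR-23a probe reaches 50% by the looser rule on the supernatant array, and the 15-base miR-27a-3p probe 40% on the exosome array.

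A call through the longer probe alone was common on the exosome array. Of the 62 miRNAs detected there that have 2 probes, 27 (43.5%) were called by the longer probe only, 34 by both and 1 by the shorter. On the supernatant array the longer probe alone called 10 of 80 (12.5%). Within the family it was 3 of 4. The probes of each member are nested, each 1 base longer than the one before it. The median length of the longest probe was 16.5 bases for the 4 detected members and 16 for the other 4, against 18 for all 36 miRNAs detected on the exosome array only. Their median GC content was 51.7% and 50%, against 46.9%.

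How far the fractions differed can be given only as a lower bound, because no member was detected in supernatant. The bound sets the exosome signal against the lowest signal of any miRNA detected on the supernatant array, 7.04. Unscaled, miR-24-3p was at least 4.11-fold higher in exosome, miR-27b at least 2.89-fold, miR-23a at least 2.17-fold and miR-23b-3p at least 1.74-fold. So all 4 members lay above 1-fold, as did 100% of the 36 miRNAs detected in exosome only, and 3 of 4 reached 2-fold, against 80.6% of the 36. Nothing is read from the first count, because the lowest signal detected in exosome, 8.21, already exceeds 7.04. With the lowest detected probe signal, 18.8, as the floor for these means over probes, miR-23a and miR-23b-3p had no bound and no member reached 2-fold. Probe by probe, against the lowest signal of any probe detected there (18.8), the unscaled bounds were smaller. They were at least 1.80-fold and 1.27-fold for the longer and shorter miR-24-3p probes, 1.64-fold for miR-27b, 1.33-fold for miR-23b-3p and 1.13-fold for miR-23a. The members were dim, and the bounds are set mainly by how close their signal lies to these floors. The bounds therefore do not rank the members by how far the fractions differ.

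Scaling moved the bounds by far more than the members differ among themselves. Over probes detected on both arrays, the 75th percentile was 473 in exosome and 15030 in supernatant, so dividing by it raised each log2 bound by 4.99. After it, the computed bounds were 130-fold for miR-24-3p, 91.8-fold for miR-27b, 69.0-fold for miR-23a and 55.3-fold for miR-23b-3p. On the log2 scale these are 7.03, 6.52, 6.11 and 5.79. Their median was 6.31, against 6.67 for all 36 miRNAs detected on the exosome array only, and 13 of the 36 lay above every member. Unscaled, the medians were 1.32 and 1.68. Under the 75th percentile scaling, miR-133a and miR-133b, detected on the supernatant array only, also had positive log2 values, at 1.73 and 1.80. With the 75th percentile of all miRNA probes as divisor, the members' bounds were 4.90-, 3.44-, 2.59- and 2.08-fold, in the same order. The scaled bounds thus depend on the divisor and are not read as minimum differences between the fractions.

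RNAs spiked in before labelling were themselves brighter on the exosome array, by 3.47-fold (dmr_285) and 2.60-fold (dmr_31a). RNAs added at hybridisation stood at 0.960-fold and 0.932-fold. Scaled to the labelling controls, miR-24-3p kept a bound of at least 1.37-fold. The values of miR-27b, miR-23a and miR-23b-3p against the floor then lay below 1-fold, at log2 -0.06, -0.47 and -0.79, so they had no bound in either direction. Of all 36 miRNAs detected on the exosome array only, 55.6% kept a bound above 1-fold under this scaling. Scaled to the hybridisation controls, the bounds were at least 2.12, 1.61, 1.20 and 0.88 on the log2 scale for miR-24-3p, miR-27b, miR-23a and miR-23b-3p. The part of labelling in the absence of the family from the supernatant array was not tested.

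**Figure D4:**
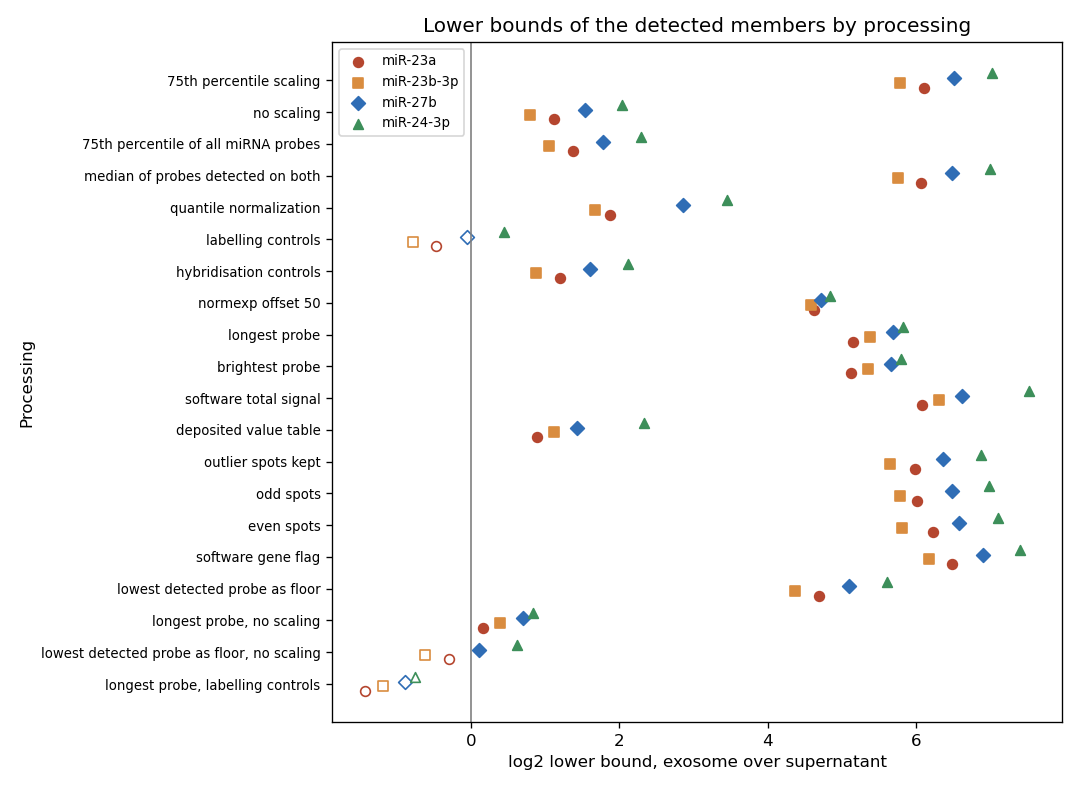
Lower bound of the log2 difference, exosome over supernatant, for the 4 detected members under each processing. Filled symbols are bounds above 0 and open symbols are values at or below 0, which give no bound. miR-24-3p has the highest value in every row and keeps a bound in all but the last, while the labelling controls leave it as the only filled symbol of its row.

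The miRNAs most alike in pattern were taken as those detected on the exosome array only, outside the family, with the nearest scaled log2 bound over the 2 arrays. For miR-23a (6.11) they were miR-34a at 6.07 and miR-140 at 6.05. For miR-23b-3p (5.79) they were miR-2284d at 5.84 and miR-29b at 5.84. For miR-27b (6.52) they were miR-19b at 6.48 and miR-2887 at 6.58, and for miR-24-3p (7.03) miR-26b at 7.08 and miR-29a at 6.97. With 2 arrays, this likeness is one of bounds only, and each bound is an exosome signal over a floor. Most of these miRNAs thus also lay near their member in exosome signal, such as miR-34a at 14.8 against 15.3 for miR-23a. The exceptions were miR-2284d (24.1, against 12.2 for miR-23b-3p) and miR-2887 (26.6, against 20.3 for miR-27b).

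Other miRNAs tied to the family's known roles were taken as lists. These lists were chosen with earlier results of these data known. A share above that of all miRNAs is therefore not read as a result. Of 15 miRNAs linked to lipid metabolism and adipocyte formation, exosome gave 5 (33.3%) and supernatant 0, against 9.85% and 12.7% of all miRNAs. They included miR-148a, abundant in milk, at 110 ± 8.23 in exosome and 0.569 ± 3.02 in supernatant. miR-26a read 74.4 ± 6.32 and 0.972 ± 3.59, and miR-103, known for its part in insulin signalling, read 66.8 ± 6.81 and 3.25 ± 3.84. miR-26b read 30.0 ± 4.37 and -1.98 ± 3.15. The median scaled log2 bound of the 5 was 8.24, against 6.31 for the 4 members and 6.67 for all 36 miRNAs detected on the exosome array only. Such bounds follow exosome brightness over a floor, so they do not rank these sets by how far the fractions differ. With the positive and significant rule the list had 9 entries in exosome (60%, against 26.3% of all miRNAs) and 4 in supernatant (26.7%, against 27.0%). Of 14 entries for miRNAs of endothelium and vessel growth, exosome gave 3 (21.4%) and supernatant 2 (14.3%). miR-20a and miR-19b, of the miR-17-92 cluster, read 68.2 ± 7.13 and 19.7 ± 4.06 on the exosome array, with no detection in supernatant. miR-92 was detected on both arrays, at 46.7 ± 5.66 and 58.7 ± 5.90, and miR-296 on the supernatant array only, at 20.9 ± 5.51. miR-126, the defining endothelial miRNA, was detected on neither.

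Marker miRNAs were read beside the family as a check of the fractions, where 9.85% of all miRNAs were detected in exosome and 12.7% in supernatant. Of 5 epithelial markers of the miR-200 family, exosome gave 4 (miR-200a, miR-200b, miR-200c and miR-141) and supernatant 2 (miR-200c and miR-141). Of 6 leukocyte entries, which share miR-155 with the vessel growth list, the exosome array detected 0, and the supernatant array detected miR-223 at 19.3 ± 4.23. Of 3 erythroid markers and 4 muscle markers the exosome array detected 0, while the supernatant array detected 1 (miR-486) and 2 (miR-133a and miR-133b). With lists this short, counts of 0 or 1 lie close to what these shares give. The positive and significant rule ended some of the exosome counts of 0. It called 2 of 6 leukocyte entries in each fraction, and 1 of 4 muscle markers in exosome and 3 of 4 in supernatant. By this rule 26.3% of all miRNAs were called in exosome and 27.0% in supernatant, so the leukocyte counts and the exosome muscle count lie near these shares. The part of any cell type in the family's signal was not tested.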

How the data were processed

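Per the labels, each array was a 1-colour Cy3 array, and per the submitters' processing notes its image was read with Agilent Feature Extraction 10.7.3.1. Deposited spot intensities were background-subtracted and carried no scaling between arrays. The deposited value table holds log2 values. It equals log2 of the software's total signal per miRNA over 0.1, with a largest deviation of 6.2e-06, and its column median is 0 on both arrays. It served as an alternative. Centring and later steps are not given in the sources used here.

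Outlier spots (8 and 10 of the members' spots) were left out. Spots were averaged per probe, and probes per miRNA on the linear scale. For a miRNA, ± is the root mean square over its probes. In a lower bound the dim side is its own signal or that array's lowest detected miRNA signal, whichever is larger. Every member was named, with the 2 nearest miRNAs per detected member and up to 4 of the brightest detected per list. Members and lists were chosen with earlier results of these data known. Both arrays held 40200 miRNA spots, and none was saturated. The number of arrays limits the precision. Steps were checked on simulated data, in which miRNAs with signal were brighter than the members. Recovery of differences was scored only for miRNAs called on both arrays, so lower bounds near the floor were not checked. Python 3.11.15, numpy 2.4.6, pandas 2.3.3, R 4.3.3 and limma 3.58.1 (normexp) were used.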

Additional observations from a re-analysis of the deposited data

How the results depend on the processing

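The 4 exosome calls were unchanged with the software's gene flag, with outlier spots kept, with at least 75% of spots required, and with odd or even spots. Requiring every probe left 1 exosome call, 1 entry for a 3p strand and 0 paralog pairs with both members called, against 1 pair in the main rule; the shortest probe on its own also gave 0 pairs. Positive and significant spots gave 1 supernatant call among the members. In the lists they gave 9 and 4 calls for lipid metabolism (60% and 26.7% of the list in exosome and supernatant, against 26.3% and 27.0% of all miRNAs) and 5 in exosome for vessel growth (35.7%). Scaling to the labelling controls left 1 member with a bound above 1-fold and 0 at 2-fold, and 1 bound of 2 in the vessel growth list. Normexp with an offset of 50, which exceeds every member signal, gave log2 bounds from 4.58 to 4.85 with 75th percentile scaling. Before that scaling, miR-23a (83.1), miR-23b-3p (80.3) and miR-27b (87.9) lay below the normexp supernatant floor of 93.6. Their bounds under normexp thus came from the scaling alone, and miR-24-3p (96.5) lay just above that floor. The count at 2-fold was 3 without scaling and with the hybridisation controls (miR-23b-3p under it) and in the deposited value table (miR-23a under it). Bounds of the members were not computed under the positive and significant rule. Added after seeing the data, the longest probe without scaling left 4 bounds above 1-fold but 0 of at least 2-fold, and with the labelling controls 0 and 0. Also added, the lowest detected probe as floor without scaling left 2 and 0, with miR-24-3p at log2 0.62 and miR-27b at 0.11. No paired analysis was possible because each fraction has 1 array. Signals of the members lie close to the lowest detected signals, which limits what any bound here can show.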

Other observations

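RefSeq places a further miRNA gene, MIR2475, within 10 kb of the chromosome 8 cluster. Its array entry, miR-2475, was detected on neither array: averaged over its probes, it read -3.59 ± 2.61 in exosome and -0.0714 ± 3.20 in supernatant. The neighbouring miR-23b-3p and miR-27b were both detected on the exosome array. Of all miRNAs, 9.85% were detected in exosome and 12.7% in supernatant, so a single undetected entry such as miR-2475 is the usual case.

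On the supernatant array the members' spots were not evenly dim. The best probe of miR-23a had 50% of its spots positive and significant, a share reached by 96 of the 585 miRNAs not detected there (16.4%), and that of miR-27b had 20%. The best probes of miR-24-3p and miR-23b-3p had 3.33% and 0%, against a median of 10% over those 585.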
